A study of Mus musculus with 2 samples.

Results

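The transcripts of 34 genes of glycolysis, the pentose phosphate pathway and the hypoxia response were followed in 2 cultures of mouse CD4 T cells, one driven to pathogenic and one to non-pathogenic Th17 cells. The members were the rows of the deposited count table whose gene symbol stood on a list of these genes, and 35 of 22036 rows with a gene identifier matched, since Aldoa stands on 2 rows. The cells were taken from wild-type mice, from both spleen and lymph nodes; strain, age and pooling are not given in what was used here. Stimulation lasted 24 h, with plate-bound antibodies to CD3 (10 μg/mL) and CD28 (5 μg/mL), blocking antibodies to IFNγ and IL-4, each listed in the labels at 10 mg/mL, and IL-6 at 20 ng/mL in both cultures. The culture labelled pathogenic Th17 (pTh17) also received activin A at 20 ng/mL, and the culture labelled non-pathogenic Th17 (npTh17) received recombinant human TGFβ1 at 2 ng/mL. Each culture gave 1 library, so no difference has a replicate check, no p-value is given, and every ratio compares these 2 libraries rather than the conditions.

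Glycolysis splits glucose into pyruvate, and in activated T cells much of that pyruvate is turned into lactate and exported even when oxygen is present. The pentose phosphate pathway branches off at glucose 6-phosphate and supplies NADPH and ribose for nucleotides. HIF-1 is a transcription factor whose alpha subunit is destroyed after prolyl hydroxylases of the Egln family modify it, and when oxygen is low it raises transcription of glucose transporters, glycolytic enzymes and other targets. In T cells this factor is known for favouring Th17 over regulatory T cell differentiation.

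Counts on named genes summed to 30877656 in the pTh17 and 33470161 in the npTh17 library. All 8 markers of CD4 T cells were present, and their summed level was 2796 CPM (counts scaled to library size) in the pTh17 and 2859 CPM in the npTh17 library. The summed level of each of the other 8 marker lists lay between 0 and 8.65 CPM in the 2 libraries. The B cell list had 29 counts in the pTh17 and 8 in the npTh17 library, with Pax5 and Blk at 0 in both, and the part of such cells in the results was not tested. In a bulk library, fewer cells of a type and less RNA per cell cannot be told apart.

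The letters upstream of 4 members are shown because these members had the 2 highest and the 2 lowest ratios of all 34. They are the 250 bases before the RefSeq start of each gene on build GRCm38.p6, written on the gene's strand from 5′ to 3′, for Hk2 (chr6:82774455-82774704, minus strand), Mif (chr10:75860278-75860527, minus strand), Bnip3 (chr7:138909507-138909756, minus strand) and P4ha1 (chr10:59323046-59323295, plus strand). Capitals mark each ACGTG or GCGTG on either strand, the core letters of sites that HIF-1 can bind.
Hk2: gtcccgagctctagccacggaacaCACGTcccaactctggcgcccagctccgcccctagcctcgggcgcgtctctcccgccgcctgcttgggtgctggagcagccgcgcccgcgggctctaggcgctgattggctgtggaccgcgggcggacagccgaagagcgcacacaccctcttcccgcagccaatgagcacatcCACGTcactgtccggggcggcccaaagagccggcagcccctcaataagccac
Mif: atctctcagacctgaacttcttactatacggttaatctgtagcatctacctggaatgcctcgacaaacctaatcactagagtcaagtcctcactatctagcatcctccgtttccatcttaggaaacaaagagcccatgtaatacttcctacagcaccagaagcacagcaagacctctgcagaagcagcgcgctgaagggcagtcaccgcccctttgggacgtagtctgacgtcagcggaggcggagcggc
Bnip3: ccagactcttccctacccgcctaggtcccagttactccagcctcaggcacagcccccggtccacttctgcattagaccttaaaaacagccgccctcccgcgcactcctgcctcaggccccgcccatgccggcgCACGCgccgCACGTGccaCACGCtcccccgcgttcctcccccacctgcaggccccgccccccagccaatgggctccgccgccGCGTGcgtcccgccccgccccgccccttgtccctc
P4ha1: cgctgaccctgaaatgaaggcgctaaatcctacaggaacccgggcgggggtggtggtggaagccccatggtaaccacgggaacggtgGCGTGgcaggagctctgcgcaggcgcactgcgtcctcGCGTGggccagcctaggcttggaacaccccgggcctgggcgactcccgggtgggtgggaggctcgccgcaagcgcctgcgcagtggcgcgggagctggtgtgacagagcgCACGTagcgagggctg

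Hk2 had 2 matches, P4ha1 had 3 and Mif had none in this window. Bnip3 had 5, of which a pair overlap in 1 CACGTG, the E-box that Myc and related factors can bind. RefSeq windows were at hand for 33 of the 34 members, and 30 of these 33 genes had ACGTG or GCGTG in at least 1 of their windows. Of all 8420 genes past the expression filter with such windows, 5387 did. By window, 38 of 48 (79.2%) held a match, against 57.9% of 10740 windows of genes past the expression filter and 38.6% of all 32851. The members Gpi1, Mif and Tpi1 had none. CACGTG stood in 12.5% of the members' windows and 8.7% of those of genes past the filter. Hk2, higher in the pTh17 library, and P4ha1 and Bnip3, lower there, all held matches, so such letters stood upstream of members on both sides of a ratio of 1. A match is a description of the sequence and no evidence of binding.

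All 34 members averaged 1 CPM or more over the libraries, as did 10597 genes in all, and the second Aldoa row, with 16 and 11 counts, did not. The ratio of a gene is its CPM in the pTh17 over the npTh17 library, with a 95% interval that covers counting error only. These intervals can be too narrow, since a fragment can have added more than 1 count. Of the 34 members, 24 (70.6%) had a ratio above 1, against 49.4% of all genes, and 10 (29.4%) had one below 1, against 50.6%. The members were chosen with earlier results of these data known, so the shares given here only describe the list. The interval lay wholly above 1 for 21 members (61.8%, against 33% of all genes) and wholly below 1 for 7 (20.6%, against 34%). The median log2 ratio of the members was 0.12, and that of all genes was −0.0045.

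How frequent large ratios were among the members depended on the genes they were set beside. At 1.5-fold, 2 members (5.88%), Hk2 and Mif, were higher in the pTh17 library, against 7.2% of all genes, and 1 member (2.94%), P4ha1, was higher in the npTh17 library, against 5.76%. At a log2 ratio of 0.32 the members were 5 (14.7%, against 16.5%) and 2 (5.88%, against 15.2%), and none reached 2-fold, where 2.25% and 1.95% of all genes lay. Abundant genes have smaller counting error, and 26 members averaged 50 CPM or more. Of these 26, 19 (73.1%) were above 1, against 47.2% of 4477 such genes, and 7 (26.9%) below, against 52.8%. At 1.5-fold they were 2 (7.69%, against 2.64%) higher in the pTh17 library and 1 (3.85%, against 2.64%) higher in the npTh17 library. Of the 2, only Hk2 was past 1.5-fold once a trend of the ratio over transcript length and GC content was removed: the log2 ratio of Mif was then 0.038, and Mif also shares 47% of its 100-base windows with genes elsewhere. At a log2 ratio of 0.32 they were 4 (15.4%, against 9.72%) and 1 (3.85%, against 10.2%), and at 2-fold 0 in each direction, against 0.38% and 0.536%. The central 50% of the members' log2 ratios ran from −0.0096 to 0.27, and that of all genes from −0.20 to 0.21.

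**Figure D1:**
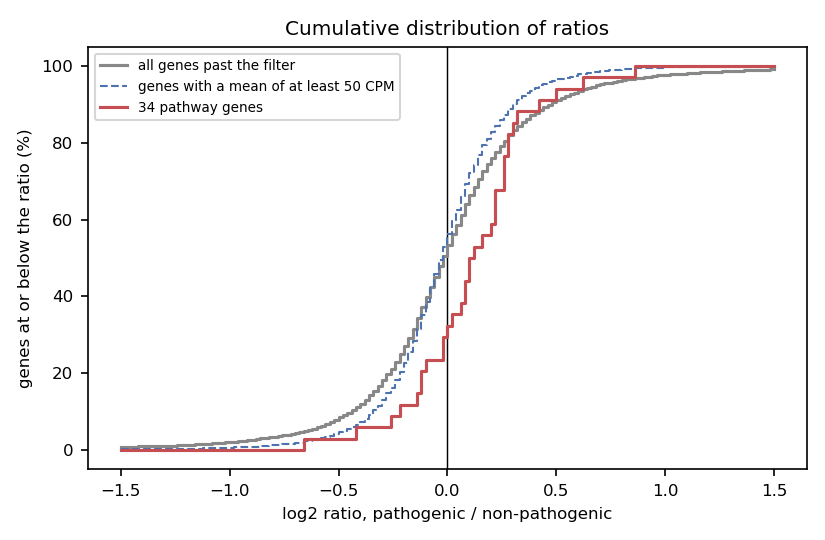
Cumulative share of genes (%) against the log2 ratio of the pTh17 over the npTh17 library, for the 34 pathway genes, for all 10597 genes past the filter and for the 4477 genes averaging 50 CPM or more. The members' curve lies to the right of both others around a ratio of 1, with a median of 0.12 against −0.0045 for all genes.

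Levels are given as FPKM, the authors' fragment counts scaled to transcript length and library size, so that genes can be compared per length. Ldha, for the lactate dehydrogenase A chain, was the most abundant member, at 1299 FPKM in the pTh17 and 1098 in the npTh17 library, followed by Pkm, for pyruvate kinase, at 966 and 905. Aldoc, an aldolase gene known mainly from brain, was the least abundant, at 0.651 and 0.566 FPKM. Together the members took 1.42% of counts in the pTh17 library and 1.29% in the npTh17 library.

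**Figure D2:**
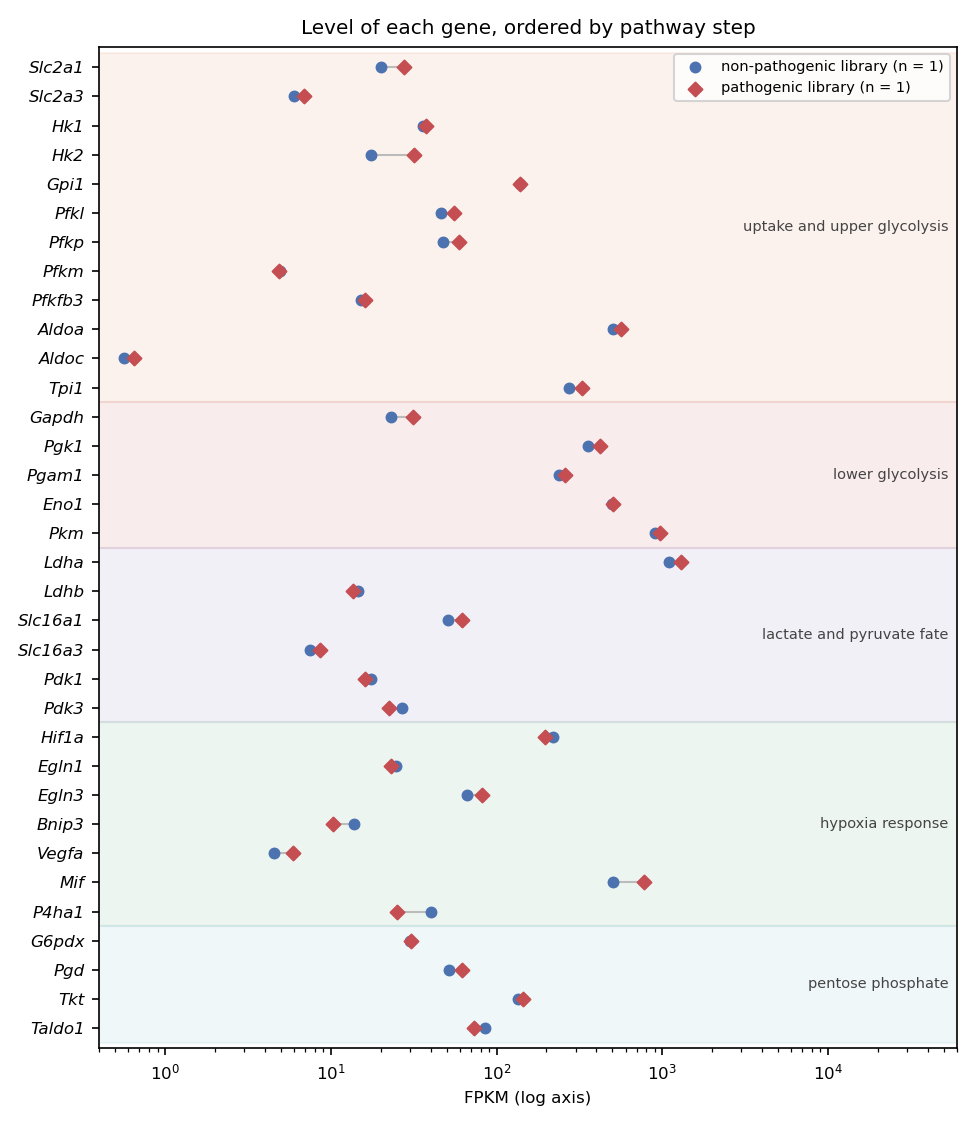
FPKM (log axis) of each of the 34 genes, ordered by pathway step, in the pTh17 (diamonds) and npTh17 (circles) library, 1 library each. The members span from Aldoc, under 1 FPKM, to Ldha at 1299 and 1098 FPKM, and the widest gaps between the libraries are at Hk2, Mif and P4ha1.

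At glucose entry, both transporter genes were higher in the pTh17 library. Slc2a1 (ENSMUSG00000028645, chromosome 4, 119108711 to 119137983), which encodes GLUT1, the main glucose transporter of activated T cells, had 27.6 FPKM in the pTh17 and 20.0 in the npTh17 library. Its ratio was 1.35-fold (1.28 to 1.42). Slc2a3, which encodes the high-affinity transporter GLUT3, had 6.93 and 5.96 FPKM, a ratio of 1.18-fold (1.07 to 1.30). Slc2a1 made up 79.9% of the summed FPKM of the 2 genes in the pTh17 and 77.0% in the npTh17 library. Other glucose transporter genes were not in this sum.

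The hexokinase step, which traps glucose in the cell by phosphorylation, held the largest ratio of all members. Hk2 (ENSMUSG00000000628, chromosome 6, 82725025 to 82774454, minus strand), the inducible hexokinase gene, had 6150 counts in the pTh17 and 3644 in the npTh17 library, or 31.6 and 17.4 FPKM. It was 1.82-fold higher in the pTh17 library (1.75 to 1.90), and 3.23% of all genes had a higher ratio. Hk1, the constitutive hexokinase gene, was close in both, at 37.6 and 35.9 FPKM and 1.05-fold (1.01 to 1.09). The makeup of the step therefore differed between the libraries: Hk2 was 45.7% of hexokinase FPKM in the pTh17 library and 32.6% in the npTh17 library. The summed hexokinase level was 69.2 against 53.3 FPKM, a ratio of 1.30-fold, and most of that gap came from Hk2. Hk2 shared no 100-base stretch with a transcript of an annotated gene elsewhere in the genome, and its log2 ratio was 0.87 from counts, 0.86 from FPKM and 0.86 with a trend over transcript length and GC content removed.

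Gpi1, for the isomerase that makes fructose 6-phosphate, did not differ beyond counting error, at 137.6 and 138.6 FPKM and a log2 ratio of −0.0037 (−0.037 to 0.030). Phosphofructokinase-1, the committed step of glycolysis, was carried by Pfkp and Pfkl in nearly equal parts. Pfkp, the platelet-type subunit gene, had 59.6 and 47.5 FPKM and was 1.26-fold higher in the pTh17 library (1.23 to 1.31), and Pfkl, the liver-type subunit gene, had 55.1 and 46.1 FPKM and was 1.20-fold higher (1.16 to 1.24). Pfkm, the muscle-type subunit gene, gave 4.06% and 4.98% of the step and had a log2 ratio of −0.012 (−0.19 to 0.17). Pfkfb3, whose enzyme makes the fructose 2,6-bisphosphate that activates phosphofructokinase-1, had 16.2 and 15.2 FPKM and a ratio of 1.06-fold (1.00 to 1.12). The summed phosphofructokinase-1 level was 119 against 98.5 FPKM, or 1.21-fold.

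In the cleavage steps, Aldoa, the main aldolase gene of these cells, had 566 and 506 FPKM and a ratio of 1.12-fold (1.10 to 1.14), and it made up 99.9% of aldolase FPKM in both libraries. The log2 ratio of Aldoa was 0.17, and 0.050 with the length and GC trend removed. Aldoc rested on 64 and 60 counts, and its interval of 0.798 to 1.67-fold holds 1. Tpi1, for triose phosphate isomerase, had 329 and 274 FPKM and was 1.20-fold higher in the pTh17 library (1.18 to 1.23). From glucose uptake to triose phosphate isomerase, 10 of 12 members had a ratio above 1, against 49.4% of all genes. The interval held 1 for Gpi1, Pfkm and Aldoc. The median log2 ratio of these 12 members was 0.22.

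**Figure D3:**
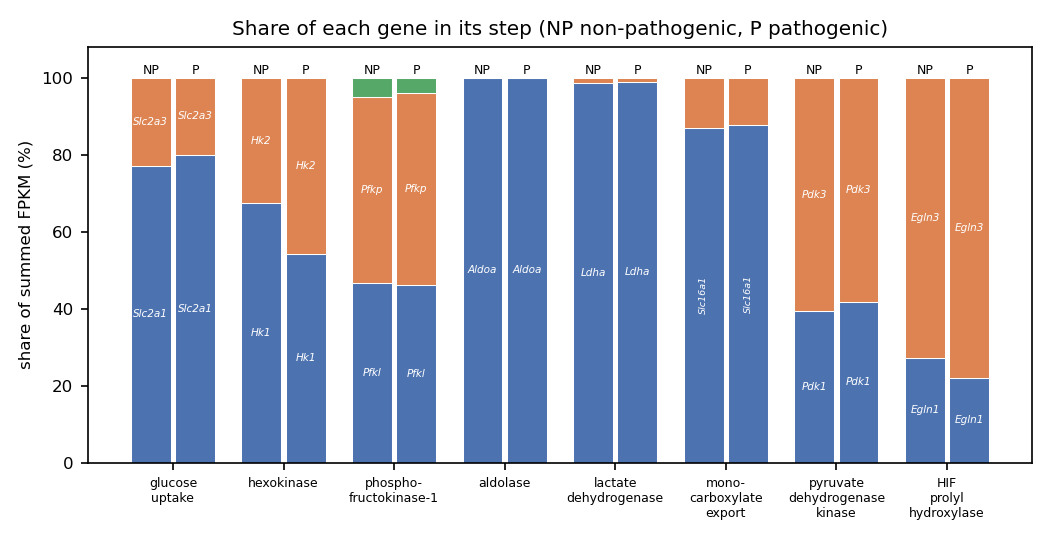
Share (%) of each gene in the summed FPKM of its pathway step, for the 8 steps with more than 1 member, in the npTh17 (NP) and pTh17 (P) library; bars start at 0, and the unlabelled parts are Pfkm, Ldhb and Slc16a3 from left to right, with Aldoc too thin to see. The Hk2 part is 45.7% in the pTh17 and 32.6% in the npTh17 library, while most other steps differ by a few percentage points.

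The lower glycolytic steps, which yield ATP and pyruvate, run from Gapdh to Pkm. Pgk1, for phosphoglycerate kinase, had 419 and 357 FPKM and was 1.18-fold higher in the pTh17 library (1.16 to 1.20). Pgam1, for phosphoglycerate mutase, had 259 and 237 FPKM, at 1.10-fold (1.07 to 1.12). Eno1, for enolase, had 505 and 498 FPKM, at 1.02-fold (1.00 to 1.03), and Pkm was at 1.07-fold (1.06 to 1.08). All 5 genes from Gapdh to Pkm had a ratio above 1, against 49.4% of all genes, with a median log2 ratio of 0.13. Once that trend was removed, log2 ratios were 0.088 in place of 0.13 for Pgam1, 0.033 in place of 0.099 for Pkm and −0.055 in place of 0.023 for Eno1.

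Gapdh, the gene of glyceraldehyde phosphate dehydrogenase and commonly one of the most abundant transcripts of a cell, had a low level here. It had 1376 counts in the pTh17 and 1045 in the npTh17 library, or 31.2 and 23.1 FPKM, while the steps before and after it, Tpi1 and Pgk1, lay between 274 and 419 FPKM. The annotation holds 154 other genes, 140 of them processed pseudogenes, with a transcript at least 90% identical to Gapdh over at least 50% of its length. Of the 100-base windows of the Gapdh transcript, 78% occur unchanged in a transcript of a gene elsewhere in the genome. How the authors' counting treated reads that match several places is not given in what was used here, so the level of Gapdh and its ratio of 1.42-fold (1.31 to 1.54) are uncertain, and the part of the copies in that level was not tested. Of the 154 copies, 5 were among the deposited rows. Gm3839 and Gm10358 held 10 and 10 counts in all, and Gm15294 and Vmn2r60 held 0. Peli2 had 234 counts in the pTh17 and 787 in the npTh17 library. Under 50% of its longest coding transcript matches Gapdh, and the part of the copy in these counts was not tested. Copies without a row cannot show counts here.

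The same share of windows was 67% for Pgk1, 59% for Eno1, 47% for Mif, 39.7% for Pgam1 and 18.8% for Bnip3, and it was under 10% for the other members. Their values carry the same uncertainty. Eno1b, a copy 99.5% identical to Eno1 over 85.6% of its transcript, had 1924 and 2109 counts of its own. Its log2 ratio of −0.020 (−0.11 to 0.069) lay near that of Eno1, and Eno1 had 35973 and 38252 counts. Without the 5 members at 30% of windows or more, the median log2 ratio of the other 29 members was 0.10. Of the 29, 19 were above 1, against 49.4% of all genes.

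At the end of glycolysis, Ldha, whose product reduces pyruvate to lactate, was 1.16-fold higher in the pTh17 library (1.15 to 1.18). Ldhb, whose isoform favours the reverse reaction, had 13.6 and 14.6 FPKM and a log2 ratio of −0.12 (−0.28 to 0.040), within counting error. Ldha was 99.0% of the pair in the pTh17 and 98.7% in the npTh17 library. Of the lactate exporters, Slc16a1, which encodes MCT1, had 62.1 and 50.6 FPKM and was 1.23-fold higher in the pTh17 library (1.20 to 1.27). Slc16a3, which encodes MCT4, the exporter of highly glycolytic cells and a HIF-1 target, was far lower at 8.61 and 7.53 FPKM, with an interval of 0.994 to 1.17-fold that holds 1. MCT1 made up 87.8% and 87.1% of the exporter FPKM.

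Among the genes of kinases that shut off pyruvate dehydrogenase, both members lay on the other side of 1, and Pdk2 and Pdk4 are not members. Pdk3 had 22.5 FPKM in the pTh17 and 26.8 in the npTh17 library and was 1.19-fold higher in the npTh17 library (1.11 to 1.27). Pdk1, a HIF-1 target, had 16.1 and 17.4 FPKM and was 1.07-fold higher there (1.02 to 1.13). Summed over both genes, the step had 38.7 against 44.2 FPKM, a log2 ratio of −0.19. Other HIF-linked members lay on both sides of 1, with Hk2, Slc2a1 and Ldha above and P4ha1 below.

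**Figure D4:**
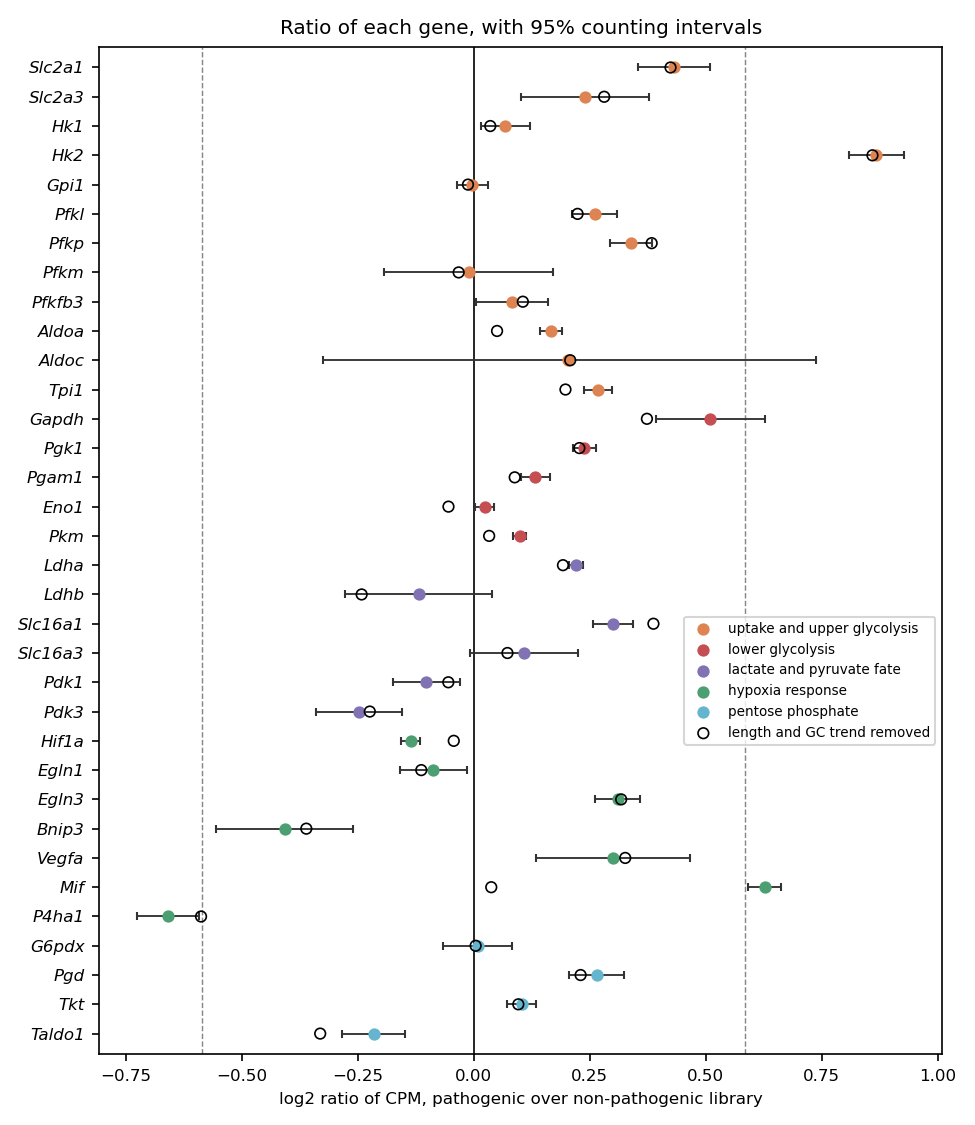
Log2 ratio of CPM in the pTh17 over the npTh17 library for each gene, with 95% counting intervals (bars), ordered by pathway step and coloured by part of the pathway; open circles are the ratios with the length and GC trend removed, and dashed lines mark 1.5-fold. Uptake, phosphofructokinase and lactate genes lie mostly to the right, the Pdk genes, Hif1a, Bnip3, P4ha1 and Taldo1 lie to the left, and Mif is the gene whose open circle lies farthest from its ratio.

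The hypoxia genes lay on both sides of a ratio of 1: 3 of 7 were above, against 49.4% of all genes, and 4 below, against 50.6%. No interval held 1, where it lay wholly above 1 for 33% and wholly below for 34% of all genes. Hif1a, the gene of the HIF-1 alpha subunit, was abundant at 197 FPKM in the pTh17 and 218 in the npTh17 library and was 1.10-fold higher in the npTh17 library (1.08 to 1.12). Its log2 ratio of −0.14 was −0.043 with the length and GC trend removed. The level of its mRNA does not give that of its protein, which is set largely by hydroxylation and degradation. Of the hydroxylase genes, Egln3, itself a HIF target, had 81.4 and 65.9 FPKM and was 1.24-fold higher in the pTh17 library (1.20 to 1.28), while Egln1, the main oxygen sensor, had 23.1 and 24.6 FPKM and was 1.06-fold higher in the npTh17 library (1.01 to 1.12). Egln3 made up 77.9% of their summed FPKM in the pTh17 and 72.8% in the npTh17 library.

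The lowest ratio of all members was that of P4ha1 (ENSMUSG00000019916, chromosome 10, 59323296 to 59373304), for a subunit of the collagen prolyl hydroxylase and a HIF target. It had 2940 counts in the pTh17 and 5016 in the npTh17 library, or 25.1 and 40.2 FPKM. It was 1.58-fold higher in the npTh17 library (1.51 to 1.65), and 4.69% of all genes had a lower ratio. The log2 ratio of P4ha1 was −0.659 (−0.725 to −0.593). With the length and GC trend removed it was −0.588, outside this interval and just past 1.5-fold. Bnip3 (chromosome 7, 138890836 to 138909519, minus strand), whose product marks mitochondria for autophagy, had 10.4 and 13.8 FPKM and was 1.33-fold higher in the npTh17 library (1.20 to 1.47). Both carry the HIF core letters printed above, which stood in 57.9% of the upstream windows of genes past the filter. Whether HIF-1 had a part in either ratio was not tested. Vegfa, the angiogenic growth factor gene and a textbook HIF target, was low at 5.89 and 4.55 FPKM and was 1.23-fold higher in the pTh17 library (1.10 to 1.38).

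Mif (ENSMUSG00000033307, chromosome 10, 75859353 to 75860240, minus strand), the gene of a cytokine that is also a HIF target, was among the most abundant members at 780.0 and 507 FPKM. It was 1.54-fold higher in the pTh17 library (1.51 to 1.58) by counts. Its transcript, of 544 bases, was the shortest among the members, and over all genes the ratio was higher at short transcripts: the median log2 ratio was 0.23 in the 1062 shortest genes, up to 1311 bases, and −0.061 in genes of 3661 to 4275 bases. With the trend over length and GC content removed, the log2 ratio of Mif was 0.038 in place of 0.63. Hk2, with a transcript of 5513 bases, had 0.86 in place of 0.87. Removing length and GC content together thus took away nearly the whole ratio of Mif and left that of Hk2. The shares of length and of GC content were not separated, and what made the trend was not tested.

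**Figure D5:**
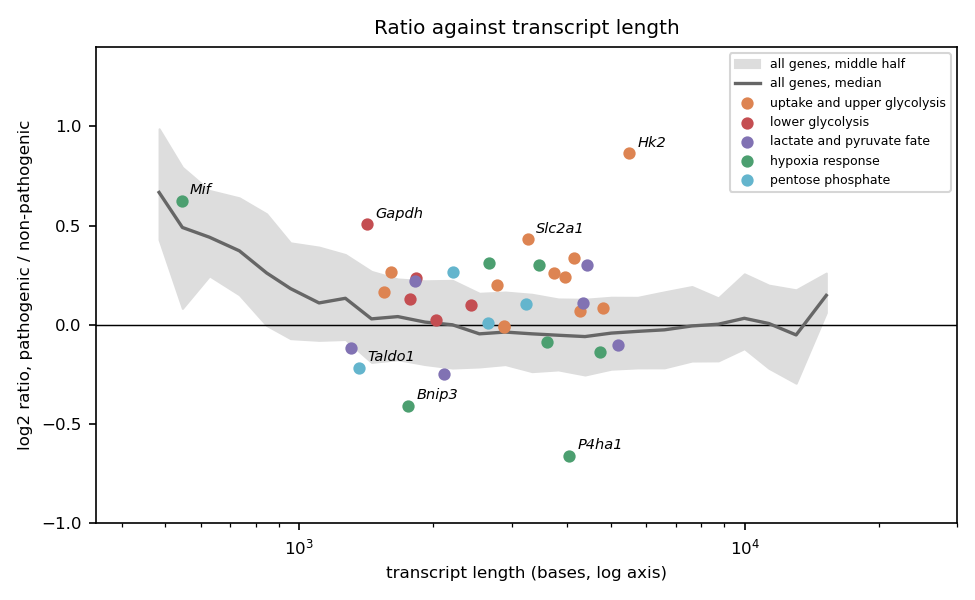
Log2 ratio of each of the 34 genes against the length of its longest coding transcript (bases, log axis), with the median and the central 50% of all genes past the filter in bins of length (grey). Mif lies on the rise at short transcripts, while Hk2, Slc2a1, P4ha1 and Bnip3 lie off the median of genes of like length.

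In the pentose phosphate pathway, the oxidative and non-oxidative branches gave mixed values. G6pdx, for the rate-limiting glucose 6-phosphate dehydrogenase, did not differ beyond counting error, at 30.5 and 30.2 FPKM and 1.01-fold (0.955 to 1.06). Pgd, for the second NADPH-yielding enzyme, had 61.8 and 51.7 FPKM and had a log2 ratio of 0.26 (0.20 to 0.32). Tkt, for transketolase, had 143 and 134 FPKM, at 1.07-fold (1.05 to 1.10), and Taldo1, for transaldolase, had 72.8 and 84.9 FPKM and was 1.16-fold higher in the npTh17 library (1.11 to 1.22). No source states that counting used strand. Of the exonic bases of G6pdx, 13.6% overlap Ikbkg, and 5.6% of those of Pfkp overlap Pitrm1, each on the opposite strand. Reads of these pairs cannot be told apart there. The largest overlaps with genes that have no row were 22.3% of Bnip3 and 11.5% of Gpi1 on the opposite strand. On the same strand they were 15.3% of Pkm and 10.2% of Pfkm. The enzymes that return pentoses to glycolysis therefore had ratios on both sides of 1, and with the trend removed the log2 ratio of Taldo1 was −0.33 in place of −0.22.

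Genes of the same and adjoining pathways that are not members are set beside these ratios. Their lists were also chosen with earlier results of these data known. Of all genes, 49.4% had a ratio above 1 and 50.6% below. Of 17 measured further genes of glucose transport and glycolysis, 6 had a ratio above 1 and 11 below, with a median log2 ratio of −0.10. Of 9 further pentose phosphate and ribose genes, 4 were above and 5 below, with a median of −0.026. Among 31 further hypoxia genes, 18 were above and 13 below, with a median of 0.070, and 3 passed 1.5-fold in each direction, where 7.2% of all genes passed toward the pTh17 and 5.76% toward the npTh17 library. Bhlhe40, a transcription factor gene of Th17 cells, was 1.98-fold higher in the pTh17 library (1.88 to 2.09) and Higd1a, a mitochondrial protein gene, 1.75-fold (1.61 to 1.90). Plod2, which encodes a collagen lysyl hydroxylase and is a HIF target like P4ha1, was 1.88-fold higher in the npTh17 library (1.71 to 2.06), and Ccng2, for cyclin G2, was 2.17-fold higher there (1.94 to 2.44).

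Downstream of pyruvate, 21 of 33 genes of mitochondrial pyruvate entry and the citric acid cycle were above 1, against 49.4% of all genes. Their median log2 ratio was 0.058, and 2 passed 1.5-fold, both higher in the pTh17 library, where 7.2% of all genes passed. These were Mpc2, for a subunit of the mitochondrial pyruvate carrier, at 1.64-fold (1.46 to 1.83), and Pdp2, for a phosphatase that switches pyruvate dehydrogenase back on, at 1.55-fold (1.43 to 1.68). Of 6 gluconeogenesis genes, 2 were measured past the filter and both were above 1. One of them, Pck2, which makes phosphoenolpyruvate in mitochondria, was 2.42-fold higher in the pTh17 library (2.14 to 2.74) at 6.83 and 2.56 FPKM. Of 21 genes on branches from glycolytic intermediates, 14 were above 1, against 49.4% of all genes, with a median of 0.12. At 1.5-fold, 1 was higher in the pTh17 library, against 7.2% of all genes, and 2 in the npTh17 library, against 5.76%. Those averaging 5 CPM or more follow. Sord, for sorbitol dehydrogenase, was 1.74-fold higher in the pTh17 library (1.42 to 2.16), and Gnpnat1, of hexosamine synthesis, was 1.72-fold higher in the npTh17 library (1.56 to 1.89).

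Among 27 measured regulators of glucose metabolism, 17 were above 1, against 49.4% of all genes, with a median log2 ratio of 0.074. At 1.5-fold, 3 were higher in the pTh17 library, against 7.2% of all genes, and 1 in the npTh17 library, against 5.76%. Esrra, a nuclear receptor gene of mitochondrial metabolism, was 2.05-fold higher in the pTh17 library (1.81 to 2.33), and its coactivator gene Ppargc1b was 1.53-fold higher (1.29 to 1.83). Sirt6, for a deacetylase that restrains glycolytic genes, had 805 and 579 counts and a log2 ratio of 0.59 (0.43 to 0.74). Sgk1, for a kinase that phosphorylates Foxo1 and is known for promoting Th17 differentiation, had 11.6 and 26.9 FPKM and was 2.30-fold higher in the npTh17 library (2.14 to 2.48).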

How the data were processed

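Polyadenylated RNA of 2 cultures was sequenced, 1 library per condition. The authors deposited whole-number counts per gene and FPKM values for the same rows, per the file headers. Per the submitters' processing notes, mm10 was the genome build. The aligner, the counter and the annotation: not given in the sources used here. Of 23702 rows, 20 named no feature, and 1646 numbered features with 2.5% and 2.9% of counts were left out.

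CPM used TMM scaling in edgeR 4.0.16 (R 4.3.3) and a prior count of 1. Intervals are exact Clopper-Pearson intervals at 95%. Counts of 2 were 3.42 and 4.37 times as frequent as counts of 1, so a fragment can have added more than 1 and intervals can be too narrow. Without molecular identifiers, PCR reads cannot be taken as independent molecules. With 1 library per condition no test was made. Step sums used FPKM of the members only, so further genes of a step are not in them. Copies were sought with blastn 2.17.0 in GENCODE M21, which also gave positions and lengths. Further lists name genes past 1.5-fold that average 5 CPM or more, at most 4 per list. Members and lists were chosen with earlier results of these data known. On independent Poisson counts simulated for 10608 genes, intervals held the planted ratio of 95.6% of unchanged genes. The intervals assume such counts, so the simulation checks the calculation and cannot show whether their width is right for these libraries.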

Additional observations from a re-analysis of the deposited data

How the results depend on the processing

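The members' median log2 ratio of 0.12 kept its sign under every alternative run. It was 0.14 from FPKM with a pseudocount of 0.1, 0.080 with the length and GC trend removed, 0.11 over members averaging 5 CPM or more, and 0.10 without the 5 members that share at least 30% of their windows, an alternative chosen after seeing the data. DESeq2 size factors, total counts, a prior count of 3, added copies and no filter left it at 0.12 after rounding. The 2 members past 1.5-fold in the pTh17 library became 1, Hk2, with the trend removed or without those 5 members. At a log2 ratio of 0.32, 5 and 2 members passed, and at 2-fold 0 and 0.

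The counts over all genes, 763 and 610 at 1.5-fold, were 466 and 384 for genes averaging 5 CPM or more, 1914 and 1738 with no filter, 1748 and 1615 at a log2 ratio of 0.32 and 238 and 207 at 2-fold. With the trend removed they were 610 and 654, the alternative in which more genes were higher in the npTh17 library. With the trend removed, 12 of 34 members left their counting interval and Eno1 changed sign; with total counts Gpi1 did, inside its interval. The hexokinase step had a log2 ratio of 0.38 from FPKM and 0.38 from CPM per kilobase, both under the interval of its summed counts, 0.39 to 0.47. No paired analysis was possible because each condition has 1 library, and no replicate could be left out.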
